A study of Mus musculus with 12 samples.

Results

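The plasminogen activator system was described through 5 genes of 58735 in the table: the activators PLAT and PLAU, the receptor PLAUR and the inhibitors SERPINE2 and SERPINB2. They were found by their full names, and all 5 were present. The genes were proposed with results of these same libraries in view, and PLAT and PLAU also stand in the study's own list of genes downregulated after SRSF1 knockdown. Their differences between groups are therefore given as a description, without a p. The 12 RNA-Seq libraries came from U2OS cells, a human osteosarcoma line, and formed 4 groups of 3 replicates. One group was blank U2OS cells, 2 groups were transfected with siRNAs against the splicing factor SRSF1 (siSRSF1-2 and siSRSF1-3), and the last overexpressed the long non-coding RNA LINC01134. The study used the siRNA groups to ask which genes change when SRSF1 is depleted. No library of cells with a control siRNA or an empty vector was analysed here, so the effect of transfection cannot be told apart from that of the siRNA or of LINC01134. The supplementary methods speak of 2 biological replicates per condition and a figure legend of 3 repeats, so the number of independent cultures behind the 3 libraries of a group is uncertain. The methods give an siRNA dose and harvest time for HOS cells, another osteosarcoma line, and none separately for U2OS. The vector that carried LINC01134 was not given in the sources used here.

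Plasminogen is a circulating zymogen that is cut to plasmin, a broad protease that dissolves fibrin and degrades matrix. Tissue-type plasminogen activator (PLAT) acts mainly on fibrin, whereas urokinase (PLAU) acts mainly at the cell surface, where it is held by its lipid-anchored receptor PLAUR. Serpins block both activators by forming stable complexes with them, and the complexes are taken up by receptors of the LDL receptor family. In bone tumors and bone-forming cells, the system is known for its part in matrix turnover, migration and invasion.

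The libraries held 26237763 to 32954539 reads on genes. SRSF1, the siRNA target, was measured at 35.9, 19.8 and 20.5 FPKM (fragments per kilobase, adjusted for library size, a level that can be compared between genes of different length) in blank cells, at 7.09, 7.46 and 7.41 FPKM with siSRSF1-2, and at 3.33, 6.81 and 7.90 FPKM with siSRSF1-3. No library of either siRNA group reached a blank library (p = 0.1 for each siRNA by an exact permutation test, two-sided, which is as low as 3 against 3 libraries can go). LINC01134 was measured at 891, 1279 and 878 FPKM in the overexpressing libraries and at no more than 1.11 FPKM in any other library. Some libraries stood apart from their groups. Blank replicate 1 correlated better with LINC01134 replicate 2 (r = 0.952 across genes) than with the other blank libraries (at most 0.937), and siSRSF1-3 replicate 3 correlated better with siSRSF1-2 replicate 1 (r = 0.960) than with its own group (at most 0.922). In contrast, blank replicates 2 and 3, LINC01134 replicates 1 and 3, and all siSRSF1-2 replicates were nearly as alike as counting noise allows (chi-square per degree of freedom between 2.13 and 3.20, against 63.2 to 316 for the other pairs). The p-values therefore measure only the spread between these libraries, part of which may be technical. Of 8 osteoblast and mesenchymal markers, 6 had a mean of at least 0.5 FPKM in each group, whereas SP7, a factor of the osteoblast lineage, and COL1A2 reached at most 0.107 and 0.0131 FPKM. Of 9 markers of other cell types, EPCAM alone reached that mean, and the summed level of the 9 ranged from 1.29 to 3.07 FPKM. The summed level of the 8 osteoblast and mesenchymal markers was 269 to 406 FPKM in blank cells, 140 to 144 FPKM with siSRSF1-2, 150 to 260 FPKM with siSRSF1-3 and 138 to 350 FPKM with LINC01134. VIM, SPARC and COL1A1 made up most of this sum, and the markers did not move together. ALPL was higher than in every blank library (5.30 to 5.94 FPKM) with both siRNAs (7.27 to 12.9 FPKM) but lower with LINC01134 (1.09 to 2.22 FPKM). RUNX2 with siSRSF1-3 (2.65 to 3.92 FPKM) overlapped the blank libraries (3.35 to 3.71 FPKM). It was below every blank library with siSRSF1-2 (2.03 to 2.38 FPKM) and LINC01134 (1.55 to 2.07 FPKM). The part of these markers in the differences below was not tested.

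PLAT (ENSG00000104368) was lower than in blank cells in all 9 manipulated libraries. The gene is listed on chromosome 8 from 42175233 to 42207724, and the human genome build was not given in the sources used here. Its level was 13.8, 14.7 and 16.1 FPKM in blank cells, which rested on 2536 to 3481 reads. With siSRSF1-2 it was 3.10, 2.94 and 2.89 FPKM, and with siSRSF1-3 it was 1.29, 2.13 and 2.30 FPKM. The libraries of each siRNA group lay close together, and none came near a blank library. With LINC01134 the level was 2.76, 11.9 and 3.30 FPKM, so that replicate 2 stood just below the blank libraries while replicates 1 and 3 were near the siRNA libraries. Relative to the blank mean of 14.9 ± 1.13 FPKM (SD, n = 3), the mean level was 20.03% with siSRSF1-2 (2.98 ± 0.109 FPKM), 12.8% with siSRSF1-3 (1.91 ± 0.544 FPKM) and 40.4% with LINC01134 (5.999 ± 5.15 FPKM).

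On the log2(FPKM + 0.1) scale used for all fitted differences, PLAT differed from blank cells by -2.28 (SE 0.0816) with siSRSF1-2, by -2.94 (SE 0.246) with siSRSF1-3 and by -1.61 (SE 0.514) with LINC01134. The last value depended on the libraries that stood apart. Without blank replicate 1 and LINC01134 replicate 2 the LINC01134 difference was -2.31. Without blank replicate 1 and siSRSF1-3 replicate 1 the siSRSF1-3 difference was -2.74.

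**Figure D1:**
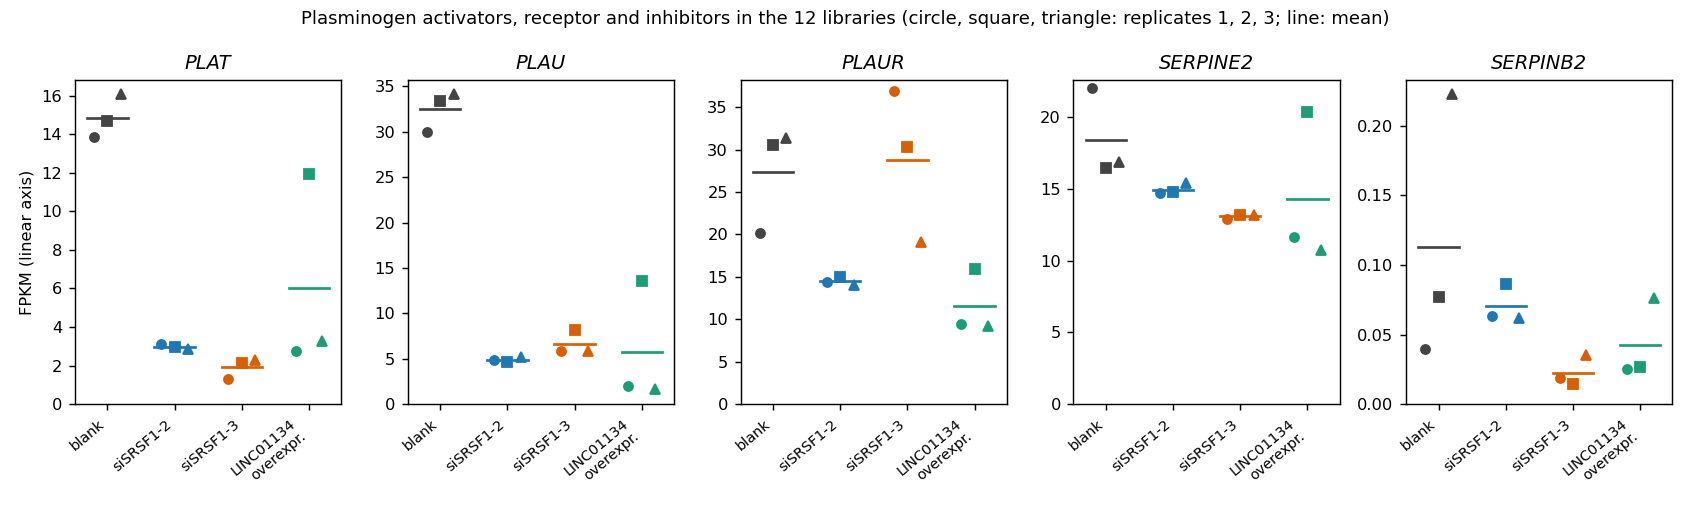
FPKM (linear axes from 0) of the 5 genes in each library, by group, with circles, squares and triangles for replicates 1, 2 and 3 and a line at the group mean. PLAT and PLAU are lower in all 9 manipulated libraries than in any blank library, LINC01134 replicate 2 stands above its group for PLAT, PLAU, PLAUR and SERPINE2, and SERPINB2 stays under 0.25 FPKM.

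PLAU (ENSG00000122861; chromosome 10, 73909177 to 73917497) had the highest mean level of the 5 genes in blank cells. Its level there was 30.0, 33.3 and 34.1 FPKM. It was 4.82, 4.68 and 5.23 FPKM with siSRSF1-2 and 5.90, 8.12 and 5.84 FPKM with siSRSF1-3. As for PLAT, no library of either siRNA group overlapped the blank group. With LINC01134 the level was 1.98, 13.6 and 1.66 FPKM, where replicates 1 and 3 were the lowest of the 12 libraries and replicate 2 was again between them and the blank cells. The mean went from 32.5 ± 2.18 FPKM in blank cells to 4.91 ± 0.284 FPKM (15.1%) with siSRSF1-2, 6.62 ± 1.30 FPKM (20.4%) with siSRSF1-3 and 5.75 ± 6.81 FPKM (17.7%) with LINC01134 (SD, n = 3 each). The fitted differences from blank cells were -2.70 (SE 0.0799), -2.29 (SE 0.193) and -3.14 (SE 0.737), respectively. Without blank replicate 1 and LINC01134 replicate 2, the LINC01134 difference was -4.14. PLAU overlaps C10orf55 on the opposite strand, which held at most 46 reads in a library. Whether the authors' counting used strand was not given in the sources used here.

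The urokinase receptor PLAUR (ENSG00000011422; chromosome 19, 43646095 to 43670547) was lower than in every blank library with siSRSF1-2 and LINC01134 but not with siSRSF1-3. Its level was 20.2, 30.6 and 31.4 FPKM in blank cells, 14.5, 15.0 and 14.01 FPKM with siSRSF1-2, and 36.8, 30.3 and 19.1 FPKM with siSRSF1-3. The siSRSF1-2 libraries thus lay below every blank library, whereas the siSRSF1-3 libraries overlapped the blank range from both sides. With LINC01134 it was 9.45, 16.0 and 9.25 FPKM, below every blank library. The fitted differences from blank cells were -0.88 (SE 0.176) with siSRSF1-2, 0.05 (SE 0.305) with siSRSF1-3 and -1.26 (SE 0.268) with LINC01134. The sign with siSRSF1-3 turned with single libraries. It was 0.32 without siSRSF1-3 replicate 3, -0.16 without blank replicate 1 and -0.36 without blank replicate 1 and siSRSF1-3 replicate 1. With FPKM rescaled to read totals it was -0.21, a scaling under which the median of all genes tested in this comparison moved from -0.01 to -0.26.

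SERPINE2 (ENSG00000135919; chromosome 2, 223975112 to 224039319) encodes protease nexin-1, an inhibitor of thrombin and of both activators. It was the more abundant of the inhibitors among the 5 genes, at 22.0, 16.4 and 16.8 FPKM in blank cells. It was measured at 14.7, 14.8 and 15.4 FPKM with siSRSF1-2 and at 12.9, 13.1 and 13.2 FPKM with siSRSF1-3. The siRNA libraries were below every blank library, but by much less than for the activators. With LINC01134 it was 11.7, 20.4 and 10.8 FPKM and overlapped the blank group through replicate 2. The fitted differences from blank cells were -0.29 (SE 0.122), -0.48 (SE 0.180) and -0.41 (SE 0.260) for siSRSF1-2, siSRSF1-3 and LINC01134. Without blank replicate 1, its highest library, the siRNA differences were -0.15 and -0.34.

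SERPINB2 (ENSG00000197632; chromosome 18, 63871692 to 63903890), which encodes the mostly intracellular plasminogen activator inhibitor type 2, was close to the detection limit. It held 3, 6 and 20 reads in the blank libraries, 5, 7 and 6 with siSRSF1-2, 1, 1 and 3 with siSRSF1-3, and 2, 2 and 6 with LINC01134. A count of 3 reads, the most that a count of 0 allows by counting error alone, corresponded to 0.0308 to 0.0557 FPKM for this gene, depending on the library. All 3 siSRSF1-3 libraries were at or under that floor, so no fold is given. With a mean under 0.5 FPKM, SERPINB2 did not pass the filter on low values and was not fitted.

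The fitted differences were then set beside those of all genes tested. The 4 fitted members had a median log2 difference from blank cells of -1.58 with siSRSF1-2, -1.39 with siSRSF1-3 and -1.43 with LINC01134, where the median of all 17538 genes tested was 0.02, -0.01 and 0.05. Counted from the lowest difference, PLAT ranked 59 and PLAU 35 of 17538 with siSRSF1-2, and they ranked 94 and 264 with siSRSF1-3. With LINC01134 their ranks were 407 and 59. PLAUR ranked 958 with siSRSF1-2 and 689 with LINC01134 but 9363 with siSRSF1-3, and SERPINE2 ranked between 3245 and 4637 in the comparisons with blank cells. A gene passed the threshold with an adjusted p under 0.05 from limma and a log2 difference over 1 in either direction. PLAT and PLAU passed it with siSRSF1-2, where 4.95% of all genes tested were called (2.22% higher and 2.73% lower), and with siSRSF1-3, where 1.26% were (0.331% higher and 0.929% lower). With LINC01134 none of the 4 passed, and 0.85% of all genes were called (0.257% higher and 0.593% lower). All 4 were lower without overlap with siSRSF1-2, as were 24.2% of all genes tested (25.3% were higher). With siSRSF1-3, PLAT, PLAU and SERPINE2 were lower without overlap, as were 18% of all genes (19.2% were higher). With LINC01134, PLAT, PLAU and PLAUR were, as were 13.8% of all genes (16.8% were higher). Since the members were chosen from these contrasts, these counts describe the choice.

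**Figure D2:**
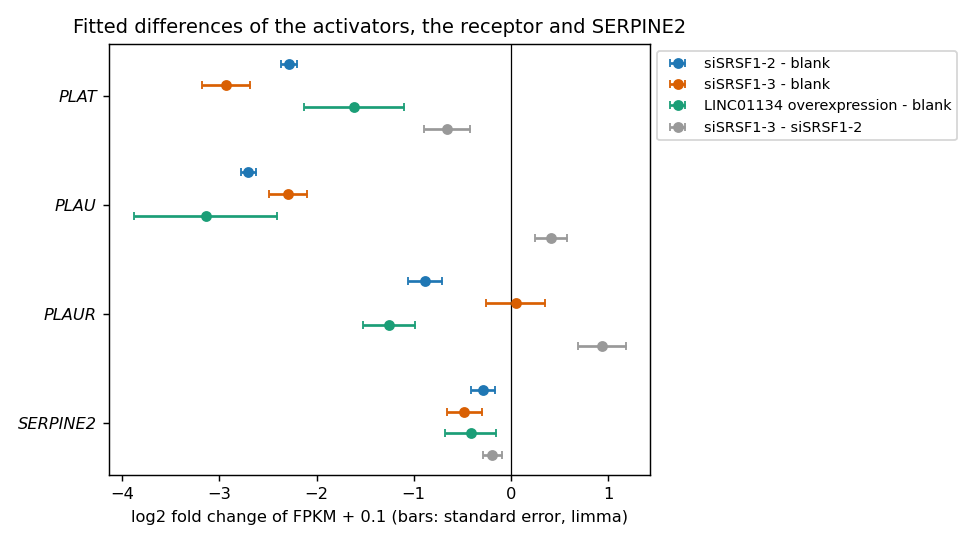
Fitted log2 differences of FPKM + 0.1 (x axis) for PLAT, PLAU, PLAUR and SERPINE2, with points for the estimate and bars for 1 standard error, coloured by comparison. PLAT and PLAU lie at -1.61 or lower in the 3 comparisons with blank cells, PLAUR with siSRSF1-3 lies at 0.05, and SERPINE2 lies between -0.48 and -0.19.

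The siRNA groups were also compared with each other. In siSRSF1-3 libraries, PLAT and SERPINE2 were lower than in every siSRSF1-2 library, with differences of -0.66 (SE 0.235) and -0.19 (SE 0.095), whereas PLAU and PLAUR were higher than in every siSRSF1-2 library, with differences of 0.41 (SE 0.163) and 0.93 (SE 0.247). Of all genes tested, 27% were higher and 27.6% lower without overlap between these groups. None of the 4 members passed the threshold here, at which 0.0855% of all genes tested were called (0.0342% higher and 0.0513% lower). With FPKM rescaled to read totals, the differences were -0.94 for PLAT, 0.11 for PLAU, 0.63 for PLAUR and -0.49 for SERPINE2, and the median of all genes tested moved from -0.02 to -0.31.

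Levels of the genes were next set against each other within each library, where a ratio does not depend on how the library was scaled. The summed level of PLAT and PLAU was 43.9 to 50.2 FPKM in blank cells, 7.62 to 8.12 FPKM with siSRSF1-2 and 7.18 to 10.3 FPKM with siSRSF1-3. It was 4.74, 25.6 and 4.96 FPKM with LINC01134. PLAU exceeded PLAT by 2.12 to 2.28 times in blank cells. The ratio was 1.55 to 1.81 with siSRSF1-2 and 4.58, 3.81 and 2.54 with siSRSF1-3, so the siRNA groups stood on opposite sides of the blank cells. With LINC01134 it was 0.717, 1.14 and 0.503, which made PLAT the more abundant activator transcript in replicates 1 and 3. The level of the receptor relative to urokinase (PLAUR over PLAU) was 0.672 to 0.921 in blank cells and was higher in each of the other 9 libraries, at 2.68 to 3.21 with siSRSF1-2, 3.27 to 6.25 with siSRSF1-3 and 4.78, 1.17 and 5.57 with LINC01134. SERPINE2 over the summed activators was likewise 0.336 to 0.502 in blank cells and higher in each of the other libraries, at 1.86 to 1.94 with siSRSF1-2, 1.28 to 1.80 with siSRSF1-3 and 2.46, 0.797 and 2.17 with LINC01134. The activators in these denominators were chosen with results of these libraries in view, so the higher ratios describe the choice. In no group were PLAUR or SERPINE2 themselves higher than in every blank library.

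**Figure D3:**
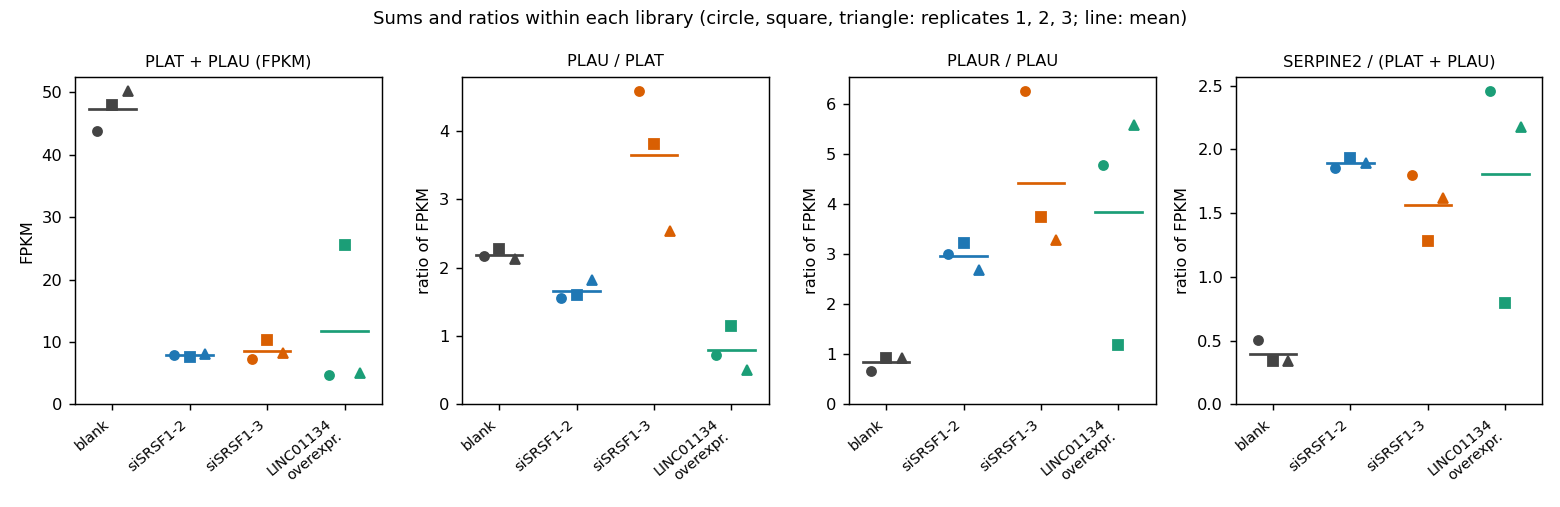
Summed FPKM of PLAT and PLAU and the ratios PLAU over PLAT, PLAUR over PLAU and SERPINE2 over the summed activators in each library (linear axes from 0; circles, squares and triangles for replicates 1, 2 and 3; lines for group means). The sum is lower, and the receptor and inhibitor ratios higher, in all 9 manipulated libraries than in the blank libraries, while PLAU over PLAT is above the blank range with siSRSF1-3 and below it in the other groups.

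A list of 60 further genes of the system held 37 that were tested. It was written from gene function with earlier results of these data known, so its counts are not independent of the data. Plasminogen itself (PLG) was at most 0.0123 FPKM in any library, and the plasma activator KLKB1 at most 0.121 FPKM. With siSRSF1-2, 33 of the 37 had a negative difference, 8 were called lower and 1 higher, where 2.73% and 2.22% of all genes tested were called. With siSRSF1-3, 30 had a negative difference and 2 were called lower, where 0.929% of all genes were called lower. With LINC01134, 30 had a negative difference and 1 was called lower, against 0.593% of all genes. In 1 fit over all 4 groups, CKAP4, ITGA3, MMP2 and MMP14 were the system genes called with siSRSF1-2, all lower. Of all 17538 genes tested, that fit called 134 higher and 180 lower. With near-identical libraries averaged, siSRSF1-2 was left with 1 library and no gene of the whole table was called, while 1 system gene was higher and 9 were lower before adjustment (p under 0.05, same fold). The median difference of the list was -0.48 with siSRSF1-2, -0.48 with siSRSF1-3 and -0.31 with LINC01134. For all genes tested the medians were 0.02, -0.01 and 0.05, and the share with a negative difference was not counted. Between the siRNAs none of the 37 passed the threshold in the main limma fit (2 groups, all replicates, log2(FPKM + 0.1)). Before adjustment (p under 0.05, same fold), 1 was higher and 7 were lower, where 1581 and 1302 of all 17538 genes tested were. A pseudocount of 1 and limma's voom on the recovered reads each called 1 lower, and 1 fit over all 4 groups called 1 higher and 6 lower. Of all genes tested, the pseudocount of 1 called 51 lower and voom 54. The fit over all 4 groups called 1472 higher and 1259 lower.

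Of 9 listed genes for proteins that hold plasminogen or the activators at the cell surface, 6 were tested. With siSRSF1-2, 3 of the 6 fell past the threshold and the other 3 (ANXA2, ENO1 and PLGRKT) did not pass. S100A10, which pairs with annexin A2 to bind plasminogen and tPA, was 118, 89.1 and 97.7 FPKM in blank cells and 45.9, 41.1 and 43.8 FPKM with siSRSF1-2, a difference of -1.21 (SE 0.112, adjusted p = 0.00208 from limma). Its level with siSRSF1-3 was 191, 139 and 62.9 FPKM, which overlapped the blank group (difference 0.23, adjusted p = 0.716 from limma). KRT8, a keratin that binds plasminogen at the surface, fell by 1.18 on the log2 scale with siSRSF1-2 (adjusted p = 0.0109 from limma). Without blank replicate 1 its difference was -0.93, short of the fold that the threshold asks. CKAP4, a surface receptor for tPA, fell by 1.22 on the log2 scale with siSRSF1-2 (adjusted p = 0.00468 from limma). ANXA2, the partner of S100A10, had a difference of -0.48 with siSRSF1-2 (adjusted p = 0.0226 from limma), which is smaller than the threshold asks. Its differences with siSRSF1-3 and LINC01134 were -0.14 (adjusted p = 0.754) and -0.08 (adjusted p = 0.832 from limma). S100A10, ANXA2 and KRT8 have near-identical pseudogene copies, so their counts are uncertain. PLGRKT, a transmembrane plasminogen receptor, was 13.1, 17.2 and 16.6 FPKM in blank cells and 42.4, 30.0 and 18.9 FPKM with siSRSF1-3. All siSRSF1-3 libraries were higher than the blank ones, but the difference of 0.89 did not pass (adjusted p = 0.129 from limma). Without siSRSF1-3 replicate 3 it was 1.19 and passed (adjusted p = 0.0154 from limma). In that setting 4184 of all 17538 genes tested passed, against 221 over all replicates.

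Of the 6 clearance receptors tested, IGF2R alone passed the threshold in the main limma fits of 2 groups. Voom on the recovered reads also called LRP1 and LRP8 lower with siSRSF1-3, as it did 411 of all 17538 genes tested. LRP1 was called there in 3 alternative settings, voom among them. IGF2R, which binds PLAUR and plasminogen among its ligands, rose with siSRSF1-2 from 26.8, 31.0 and 30.3 FPKM to 63.1, 65.1 and 66.5 FPKM (difference 1.15, SE 0.0725, adjusted p = 0.000951 from limma). With siSRSF1-3 it was 14.3, 22.6 and 46.6 FPKM, which spread over both sides of the blank level. LRP1, the main endocytic receptor for complexes of activators with their inhibitors, was 11.5, 14.3 and 13.6 FPKM in blank cells and 3.37, 4.23 and 7.41 FPKM with siSRSF1-3. Although no library overlapped, the difference of -1.45 did not pass (adjusted p = 0.0610 from limma), and it did without siSRSF1-3 replicate 3 (-1.77, adjusted p = 0.00982 from limma). Leaving out that replicate raised the genes called in all from 221 to 4184. With siSRSF1-2 it was 11.5, 11.8 and 12.1 FPKM, a difference of -0.14 (adjusted p = 0.296 from limma). The difference between the siRNAs was -1.30 (adjusted p = 0.0759 from limma).

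Integrins act as partners of PLAUR in adhesion. All 7 partners tested had a negative difference with siSRSF1-3, where the median of all genes tested was -0.01. None passed the threshold in the main limma fit of 2 groups, although 2 were lower before adjustment and voom called ITGB3. Of all 17538 genes tested, 1269 were lower before adjustment (p under 0.05, same fold) and voom called 411 lower. Over the 37 tested genes of the whole system list, not these partners alone, the limma fit over all 4 groups called 9 lower with siSRSF1-3. That fit called 1177 of all genes tested lower. With siSRSF1-2, ITGA3 and ITGB3 fell past the threshold in the main fit. ITGA3 was 94.1, 81.4 and 78.9 FPKM in blank cells and 37.6, 38.3 and 36.8 FPKM with siSRSF1-2, a difference of -1.17 (SE 0.0795, adjusted p = 0.00105 from limma). ITGB3, a subunit of the vitronectin receptor, was much less abundant, at 1.20, 1.59 and 1.63 FPKM and 0.483, 0.378 and 0.347 FPKM, a difference of -1.64 (SE 0.205, adjusted p = 0.00401 from limma). With a pseudocount of 1 in place of 0.1 its difference was -0.82, under the fold that the threshold asks.

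**Figure D4:**
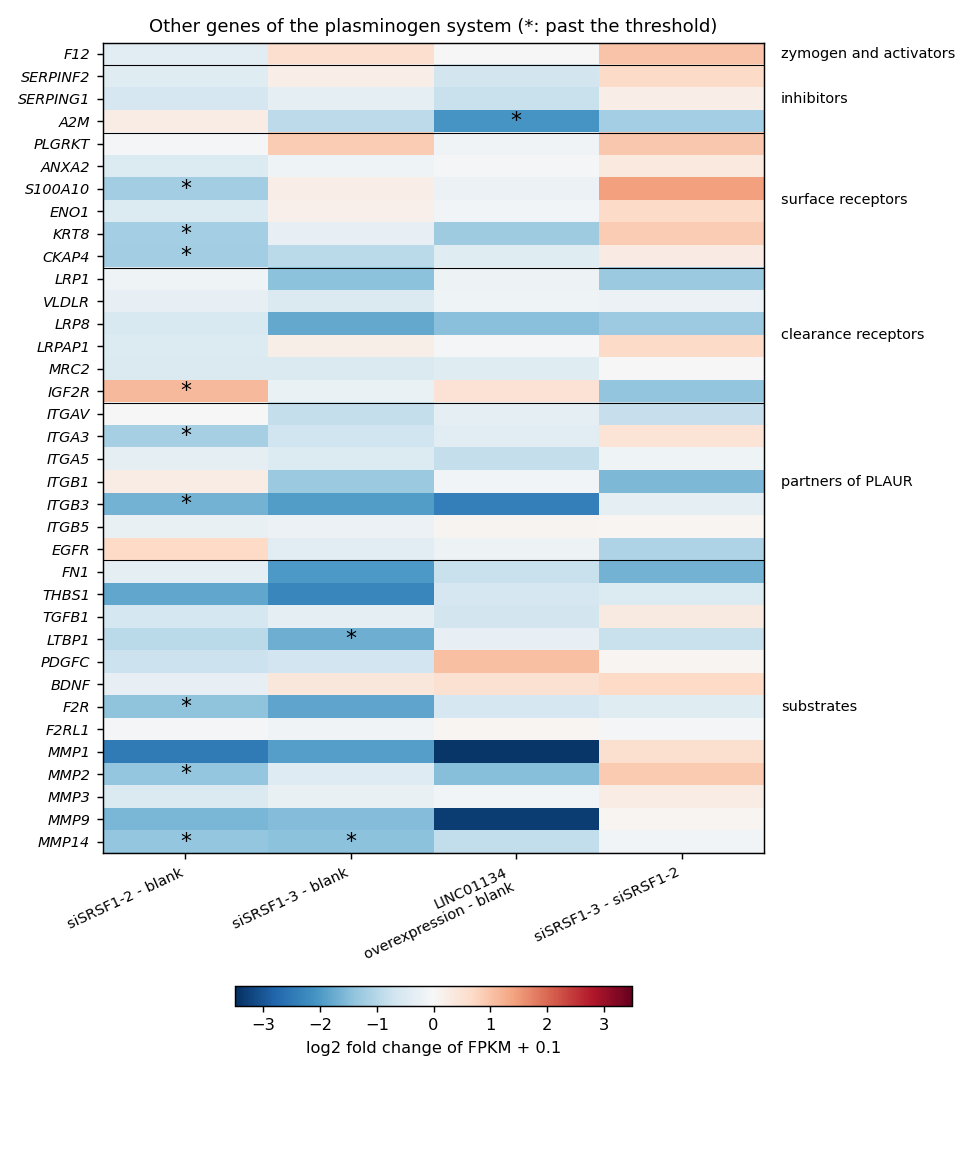
Fitted log2 differences of FPKM + 0.1 (colour, blue for lower and red for higher) for tested genes of the list, grouped by role, in the 4 comparisons, with a star for genes past the threshold. Stars stand at 9 genes with siSRSF1-2, at LTBP1 and MMP14 with siSRSF1-3 and at A2M with LINC01134.

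Substrates and downstream targets of plasmin and the activators held most of the remaining calls. MMP14, a membrane-bound matrix metalloproteinase that activates MMP2, was called lower with both siRNAs. It was 36.2, 45.4 and 44.9 FPKM in blank cells, 16.0, 17.1 and 16.2 FPKM with siSRSF1-2 and 11.2, 18.5 and 17.4 FPKM with siSRSF1-3. The differences were -1.35 (SE 0.101, adjusted p = 0.00122 from limma) and -1.45 (SE 0.243, adjusted p = 0.0483 from limma). MMP2, a gelatinase, fell with siSRSF1-2 from 39.8, 54.2 and 55.1 FPKM to 18.5, 19.97 and 19.1 FPKM (difference -1.35, adjusted p = 0.00238 from limma). It was 39.4, 35.6 and 33.7 FPKM with siSRSF1-3, all just below the blank libraries (-0.44, adjusted p = 0.193 from limma). F2R, a receptor cleaved by thrombin and plasmin, had a difference of -1.40 with siSRSF1-2 (adjusted p = 0.0369 from limma) that was -0.96, short of the threshold, without blank replicate 1, and its call was lost in 8 of 13 alternative settings. LTBP1, which anchors latent TGF-beta in the matrix, was 12.6, 9.14 and 9.26 FPKM in blank cells and 2.34, 2.64 and 4.55 FPKM with siSRSF1-3, a difference of -1.71 (SE 0.288, adjusted p = 0.0483 from limma). The calls of LTBP1 and MMP14 with siSRSF1-3 were lost in 10 of 14 alternative settings, among them the omission of blank replicate 2 or 3.

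MMP1 and MMP9, which are known to be activated from their zymogens downstream of plasmin, had a blank replicate 1 far from the other blank libraries. MMP1, a collagenase, was 2.86, 43.2 and 42.9 FPKM in blank cells, 3.11, 3.11 and 3.02 FPKM with siSRSF1-2, 3.99, 5.11 and 4.64 FPKM with siSRSF1-3 and 0.893, 4.03 and 1.05 FPKM with LINC01134. MMP9, another gelatinase, was 3.35, 17.6 and 17.3 FPKM in blank cells and between 0.399 and 3.86 FPKM in the other libraries. In both genes blank replicate 1 was near the manipulated libraries, in contrast to PLAT and PLAU, for which it was with the other blank libraries. Neither gene passed the threshold in the main limma fits of 2 groups, which include blank replicate 1. Values without that library are not given here for these genes. With it, MMP1 differed from blank cells by -2.47 (SE 1.04) with siSRSF1-2, -1.92 (SE 0.992) with siSRSF1-3 and -3.40 (SE 1.11) with LINC01134. For MMP9 the differences were -1.59 (SE 0.635), -1.52 (SE 0.617) and -3.33 (SE 0.872), respectively. A2M, which encodes the protease trap alpha-2-macroglobulin, was the only gene of the list called with LINC01134 in these main fits. It went from 6.66, 11.0 and 11.2 FPKM to 1.68, 3.02 and 1.95 FPKM (difference -2.07, SE 0.286, adjusted p = 0.0402 from limma). This call was lost in 7 of 14 alternative settings, including the omission of blank replicate 2 or 3 and of LINC01134 replicate 1 or 3.

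**Figure D5:**
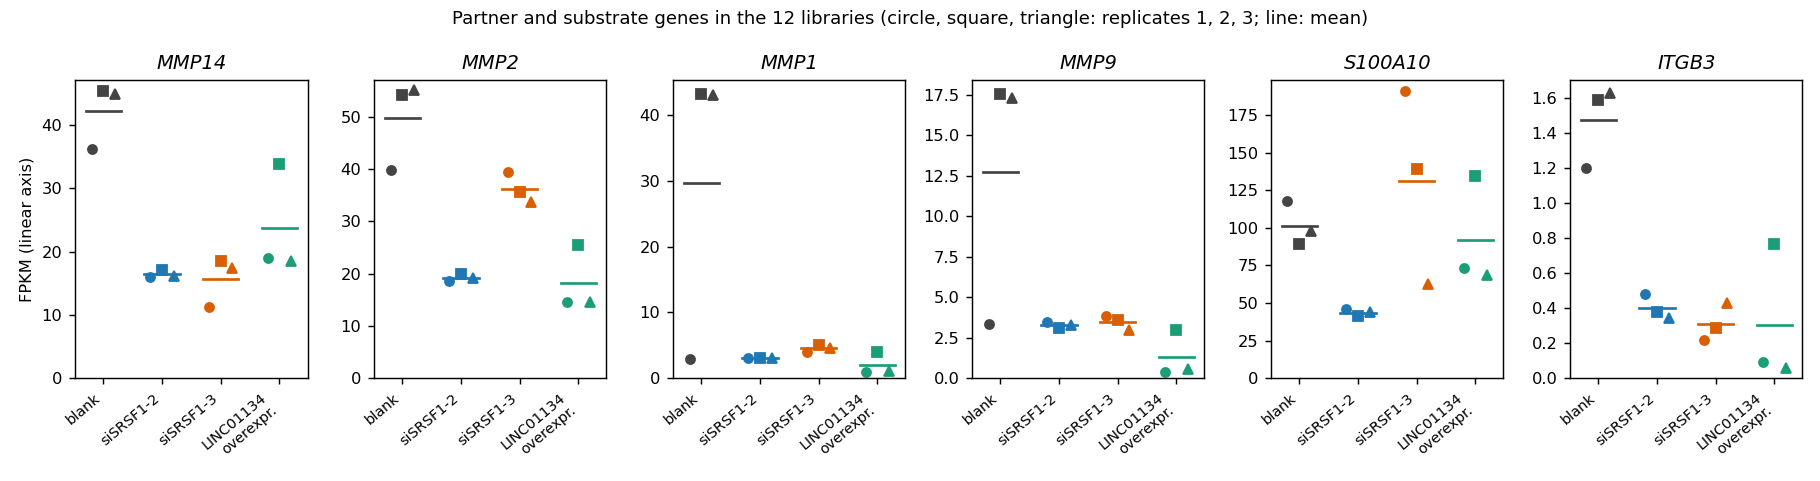
FPKM (linear axes from 0) of MMP14, MMP2, MMP1, MMP9, S100A10 and ITGB3 in each library, with circles, squares and triangles for replicates 1, 2 and 3 and a line at the group mean. Blank replicate 1 (2.86 FPKM) is far below the other blank libraries for MMP1, and siSRSF1-3 libraries spread from 62.9 to 191 FPKM for S100A10.

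Genes whose pattern over the 12 libraries was most like that of each member were found by Pearson's r of log2(FPKM + 0.1) among 12264 other tested protein-coding genes with a full name. The libraries share groups, so the r values are descriptive. For PLAT the nearest were the genes for actin filament associated protein 1 like 1 (r = 0.984), synaptosome associated protein 25 (r = 0.980) and TIMP metallopeptidase inhibitor 3 (r = 0.977). For PLAU they were the genes for cerebellar degeneration related protein 2 like (r = 0.987), olfactomedin 1 (r = 0.981) and KDEL endoplasmic reticulum protein retention receptor 3 (r = 0.971). PLAUR was most like chondroitin polymerizing factor (r = 0.986), parvin gamma (r = 0.977) and pleckstrin 2 (r = 0.976), and SERPINE2 was most like mitogen-activated protein kinase kinase kinase 6 (r = 0.977), beta-1,4-N-acetyl-galactosaminyltransferase 1 (r = 0.971) and glucose-6-phosphate dehydrogenase (r = 0.968). The genes nearest to SERPINB2 reached at most r = 0.824 with its few reads. No gene was among the nearest of 2 members.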

How the data were processed

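RNA of 12 U2OS libraries was sequenced as 150 bp paired-end reads of poly-T selected mRNA according to the supplementary methods, whereas the labels name a SMARTer kit. The authors deposited FPKM per gene, listed with human Ensembl identifiers, full names, gene lengths and coordinates. The labels give mouse and the builds GRCm38 and mm10, while the aligner and human build were not given in the sources used here. FPKM times length was a whole multiple of 1 step per library (largest deviation 0.000157 of a read), which gave reads. The implied library size was 0.712 and 0.888 times the reads on genes in siSRSF1-3 replicates 1 and 2, and 0.990 to 1.09 times elsewhere. Depth was 26237763 to 32954539 reads, and floors cover counting error only.

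log2(FPKM + 0.1) was fitted with limma 3.58.1 in R 4.3.3 (trend in eBayes) for the 2 groups of each comparison, over the 17538 genes whose mean was 0.5 FPKM or more, with Benjamini-Hochberg adjustment over all of them and an absolute log2 difference over 1. Scripts were tested on simulated data. The members and lists (60 system genes, 15 serpins, 14 transcription factors, 17 markers) were chosen with earlier results of these data known. Named genes were the members, SRSF1, LINC01134, the called genes of the lists, PLG, ANXA2, S100A10, LRP1, PLGRKT and the 3 genes most like each member. IGF2R, KLKB1, SP7, COL1A2, EPCAM, VIM, SPARC, COL1A1, ALPL, RUNX2, ENO1, MMP1, MMP9, FOSL1, JUND, FOS, JUNB, ETS1, SERPINB1, SERPINB6, SERPINB8, LRP8, ITGB1, BDNF and PDGFC were added after their values were seen. All 113 listed symbols matched by full name, and 1 gene of the system list is counted but not reported here. No sequence is printed, as no human reference was used here. Alternatives were a pseudocount of 1, no filter, scaling to own read totals, voom, 1 fit over all groups, a replicate block and omission of each library. After seeing the data, near-identical libraries were averaged and pairs of libraries that stood apart were left out.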

Additional observations from a re-analysis of the deposited data

Results flagged for a closer look

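In 3 of the 37 tested genes of the system list, manipulated groups stood on opposite sides of the blank cells. Every library of one group was above all blank libraries and every library of another group below them. The share of all genes tested with such a pattern was not counted. In single comparisons with blank cells, 16.8% to 25.3% of all genes were higher and 13.8% to 24.2% lower without overlap. ITGB1, the beta-1 integrin subunit, was 176, 150 and 154 FPKM in blank cells, 186, 194 and 199 FPKM with siSRSF1-2 and 35.7, 57.5 and 136 FPKM with siSRSF1-3. Its differences from blank cells were 0.27 and -1.29, and the difference between the siRNA groups was -1.56 (adjusted p = 0.0850 from limma). BDNF, a growth factor whose precursor plasmin can cleave, was 2.37, 1.92 and 1.74 FPKM in blank cells, 1.52, 1.65 and 1.64 FPKM with siSRSF1-2 and 2.91, 2.60 and 2.44 FPKM with siSRSF1-3. Its differences were -0.30 and 0.39, and the siRNA groups differed by 0.69 (adjusted p = 0.0738 from limma). PDGFC, a growth factor activated by PLAT, was 12.2, 4.25 and 4.76 FPKM in blank cells, 3.87, 3.43 and 3.89 FPKM with siSRSF1-2 and 13.03, 13.9 and 12.6 FPKM with LINC01134. Its differences from blank cells were -0.74 and 1.06, which are 1.80 apart (siSRSF1-2 minus LINC01134, -1.80), and this difference was not tested. Blank replicate 1 was closer to the LINC01134 libraries than to the other blank libraries for this gene.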

How the results depend on the processing

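PLAT and PLAU were lower than in blank cells under all alternatives run, by -3.18 to -2.46 and -2.55 to -2.15 with siSRSF1-3, -2.33 to -1.99 and -2.76 to -2.50 with siSRSF1-2, and -2.31 to -1.22 and -4.14 to -2.61 with LINC01134. PLAUR with siSRSF1-3 ranged from -0.36 to 0.32 and kept its sign in 9 of 14 alternatives. Counts of calls moved far more. With siSRSF1-3 against blank cells, the 221 genes called in all and the 2 system genes became 116 and 0 without a filter, 69 and 0 with own read totals, 587 and 6 with voom, 2422 and 9 with 1 fit over all groups, 0 and 0 with near-identical libraries averaged (1137 higher and 1016 lower before adjustment, p under 0.05 with the same fold), and 0 and 0 without blank replicate 1 and siSRSF1-3 replicate 1 (546 and 855 unadjusted). A pseudocount of 1 gave 4 system genes. Leaving out single libraries gave 0 to 4184 genes in all and 0 to 11 system genes, the highest without siSRSF1-3 replicate 3. With siSRSF1-2, the 868 and 9 calls became 314 and 4 with 1 fit over all groups and 0 and 0 with averaging (329 and 469 unadjusted). A pseudocount of 1 gave 379 genes in all. Single libraries left out gave 534 to 1188. With LINC01134, the 149 and 1 calls became 81 and 0 without a filter, 348 and 2 with voom, 689 and 5 with 1 fit, 1 and 0 with averaging, and 2446 and 15 without blank replicate 1 and LINC01134 replicate 2. A pseudocount of 1 gave 2 system genes. Single libraries left out gave 1 to 1540 and 0 to 9, the highest without LINC01134 replicate 2. Between the siRNAs, the 15 and 0 calls became 84 and 1 with a pseudocount of 1, 110 and 1 with voom, and 2731 and 7 with 1 fit. They were 109 in all without a filter and 0 with averaging (206 and 154 unadjusted). Single libraries left out gave 0 to 5358 and 0 to 13, the highest without siSRSF1-3 replicate 3. The share of higher genes among the calls with siSRSF1-3 went from 26.2% to 15.9% with own read totals. The cause of these shifts was not tested.

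Replicate numbers did not pair the libraries, since the deviations of same-numbered libraries correlated by -0.081 to 0.042. With the replicate number as a block, siSRSF1-3 gave 0 calls in all (1358 higher and 1272 lower unadjusted) and 0 system genes, LINC01134 gave 4 and 0, and the siRNAs compared with each other gave 0 (1621 and 1416 unadjusted). Depth limits SERPINB2 alone among the members.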

Other observations

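Other serpins and the transcription factors known to act on the genes of the system were measured as lists of their own. These lists were also written with earlier results of these data known. Of 15 other serpins, 7 were tested. SERPINB7, a serpin best known from skin, was 2.49, 1.23 and 1.68 FPKM in blank cells, 0.885, 0.475 and 0.738 FPKM with siSRSF1-2 and 0.222, 0.347 and 0.279 FPKM with LINC01134. It was called lower in both groups, with differences of -1.23 (adjusted p = 0.0345) and -2.27 (adjusted p = 0.0402 from limma), calls that were lost in 9 of 13 and 7 of 14 alternative settings. Of all genes tested, 2.73% and 0.593% were called lower in these comparisons. No serpin was called with siSRSF1-3 over all replicates (0 in limma also before adjustment, p under 0.05 and the same fold, and 0 with voom). Of all genes tested, the main limma fit called 0.331% higher and 0.929% lower there. Without siSRSF1-3 replicate 3, SERPINB1, SERPINB6 and SERPINB8 were called higher, as were 2192 of all 17538 genes tested (58 over all replicates). SERPINB1, an inhibitor of neutrophil proteases, was higher than in every blank library (6.95, 8.48 and 9.35 FPKM) in all 9 other libraries (10.6 to 19.5 FPKM), with differences of 0.41 to 0.93 over all replicates, which are smaller than the threshold asks.

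Of 14 transcription factors, 13 were tested and none passed the threshold in the limma fits of 2 groups over all replicates. Of all genes tested, 0.0855% to 4.95% passed in these fits. Before adjustment (p under 0.05, same fold), 2 were higher with siSRSF1-3, 2 were lower with LINC01134 and 1 was higher with siSRSF1-3 than with siSRSF1-2. Among all 17538 genes tested, the counts by the same rule were 1327, 877 and 1581. FOSL1 and JUND were called higher with siSRSF1-3 than in blank cells in 1 fit over all 4 groups and without siSRSF1-3 replicate 3, and voom called FOSL1. Of all genes tested, these settings called 1245, 2192 and 176 higher, respectively. Against siSRSF1-2, FOSL1 was called higher in the fit over all 4 groups, and without siSRSF1-3 replicate 3 FOSL1 and JUND were called higher and ETS1 lower. Of all genes tested, 1472 were called higher and 1259 lower in that fit. Without that replicate, 2807 were called higher and 2551 lower. With LINC01134, JUNB was called lower without blank replicate 1 and FOS without LINC01134 replicate 2, and both were called with these 2 libraries left out. Of all genes tested, 645, 1029 and 1551 were called lower in these settings, respectively. FOSL1, an AP-1 subunit, was 46.6, 65.4 and 66.4 FPKM in blank cells, 75.8, 83.1 and 76.1 FPKM with siSRSF1-2 and 347, 191 and 134 FPKM with siSRSF1-3, the latter a difference of 1.82 (adjusted p = 0.0612 from limma). JUND, another AP-1 subunit, was 35.7, 32.8 and 27.6 FPKM in blank cells and 118, 76.96 and 40.9 FPKM with siSRSF1-3, a difference of 1.17 (adjusted p = 0.118 from limma). In both genes siSRSF1-3 replicate 1 was the highest and replicate 3 the lowest of the group.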
